A study of Sus scrofa with 6 samples.

Results

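Stanniocalcin 1 (STC1), stanniocalcin 2 (STC2), parathyroid hormone-like hormone (PTHLH) and its receptor PTH1R are 4 genes of secreted calcium regulation, and they were followed here through the endometrium of pregnant Erhualian sows. All 4 were found by symbol among the 14262 genes of the deposited table, as ENSSSCG00000009642 (STC1), ENSSSCG00000016983 (STC2), ENSSSCG00000036893 (PTHLH) and ENSSSCG00000011326 (PTH1R). They were chosen by their normalized read counts in these same libraries, above all the wide spread of STC1, STC2 and PTHLH among the sows, so their levels are a description and carry no test. Endometrium, the inner lining of the uterus, came from 3 high prolific and 3 low prolific sows of Erhualian, a Chinese pig breed (Sus scrofa), each on day 12 of gestation. The labels name no treatment and give neither litter size nor calcium concentration for single animals. The sows are written H1 to H3 (high prolific) and L1 to L3 (low prolific) by their label numbers. Parity, the number of litters, was 5 in H1, 8 in H2 and H3, 7 in L1 and L2, and 5 in L3. Parity 5 thus occurred in 1 sow of each group, parity 7 in low prolific sows alone and parity 8 in high prolific sows alone.

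Stanniocalcins are secreted glycoproteins, first known from fish, where they lower calcium uptake. In mammals STC1 and STC2 act locally, both restrain the pappalysins, the proteases that free insulin-like growth factors (IGFs) from their binding proteins, and both are raised by hypoxia or cell stress. In the pig uterus STC1 is known as a product of the luminal epithelium around implantation that is raised by progesterone together with estrogen. PTHLH, also called PTHrP, is a local hormone that signals through PTH1R, a receptor coupled to cyclic AMP and to phospholipase C, and it is known to relax uterine smooth muscle and to act in placental calcium transfer.

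The values are normalized read counts, whose column sums lay between 22663087 and 24270245, and the number of reads behind them is unknown. Epithelial markers (8 of 10 measured, summed level 74571 to 77911 for H1 to H3 and 62874 to 87606 for L1 to L3) and fibroblast markers (9 of 9, 409978 to 570225 and 481326 to 643792) were abundant in each library. Markers of trophectoderm, the outer layer of the conceptus, were low (3 of 10 measured, summed level 96.6 to 119 and 132 to 175), and its defining enzyme CYP19A1 matched no row. A gene without a row was not measured, so a missing row does not show that it was silent. In the comparison of groups 0 of 14262 genes (0%) passed limma at an adjusted p threshold of 0.05, the smallest adjusted p being 0.493, and 1129 genes (7.92%) had an unadjusted p under 0.05. Across genes, the deviations of H1 and L3 from their group means correlated at 0.38, the highest of the 9 pairs of a high with a low prolific sow, and these are the 2 sows of parity 5.

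STC1 was either very high or low, and the split ran across the prolificacy groups. Its normalized read count was 11641 in H1, 727 in H2 and 642 in H3, and 425 in L1, 350 in L2 and 9814 in L3. The high values belonged to 1 sow of each group, and the groups overlapped. The 2 high sows were the 2 of parity 5, and they differed from each other by 1.19-fold. The lower of them stood 13.5-fold above the highest of the other 4 sows, which spanned 2.08-fold among themselves. From the lowest to the highest sow STC1 covered 33.3-fold, and 73 of the 14262 genes (0.512%) had a wider range on the log2 scale.

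The group means of STC1 were smaller than their SDs. They were 4337 ± 6326 across the high prolific and 3530 ± 5443 across the low prolific sows (SD, n = 3), a log2 fold change of 0.63 ± 1.64 (moderated SE, high minus low). That value was -0.73 without H1, -0.08 without L1, -0.22 without L2 and 2.19 without L3. At parity 5 the high prolific sow was the higher of the pair. Among the other 4 sows, both high prolific sows (parity 8, mean 685) lay above both low prolific sows (parity 7, mean 388), a ratio of 1.77, and there group and parity cannot be told apart. With parity as a linear covariate the log2 fold change between groups was 1.74 ± 0.49 (SE), although the values did not fall evenly with parity.

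**Figure D1:**
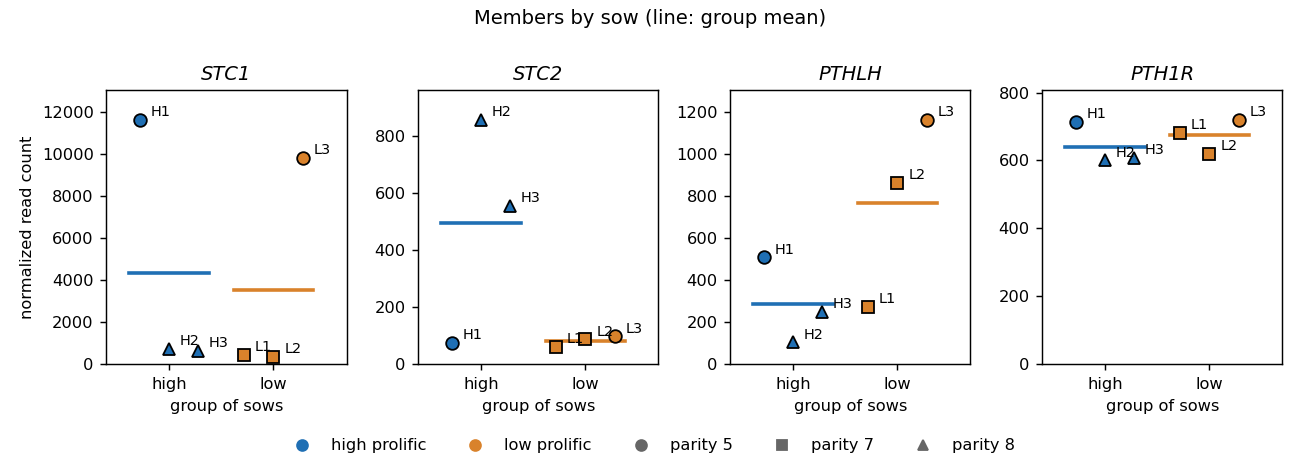
Normalized read counts (linear axes from 0) of STC1, STC2, PTHLH and PTH1R, with 1 point per sow (blue for high prolific H1 to H3, orange for low prolific L1 to L3), its shape giving parity, and a line at the group mean. STC1 is at 11641 in H1 and 9814 in L3 against at most 727 elsewhere, STC2 is at 858 and 555 in H2 and H3 alone, and PTH1R lies between 601 and 720.

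STC2 was high in a different pair of sows. It stood at 74 in H1, 858 in H2 and 555 in H3, and at 60.5 in L1, 86.8 in L2 and 97.7 in L3. H2 and H3, the sows of parity 8, were the high ones, while H1 lay inside the range of the low prolific sows, so the groups overlapped. The lower of the pair was 5.68-fold above the highest of the other 4, and these 4 spanned 1.61-fold. The means were 496 ± 395 across the high prolific and 81.7 ± 19.1 across the low prolific sows (SD, n = 3), with a log2 fold change of 2.02 ± 0.88 (SE). It was 3.09 without H1, 1.33 without H2 and 1.65 without H3. Because parity 8 occurred in high prolific sows alone, parity and group cannot be told apart here, but the high prolific sow of parity 5 did not share the high level. STC1 and STC2 were thus high in separate sows, and none of the 6 libraries was high in both.

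**Figure D2:**
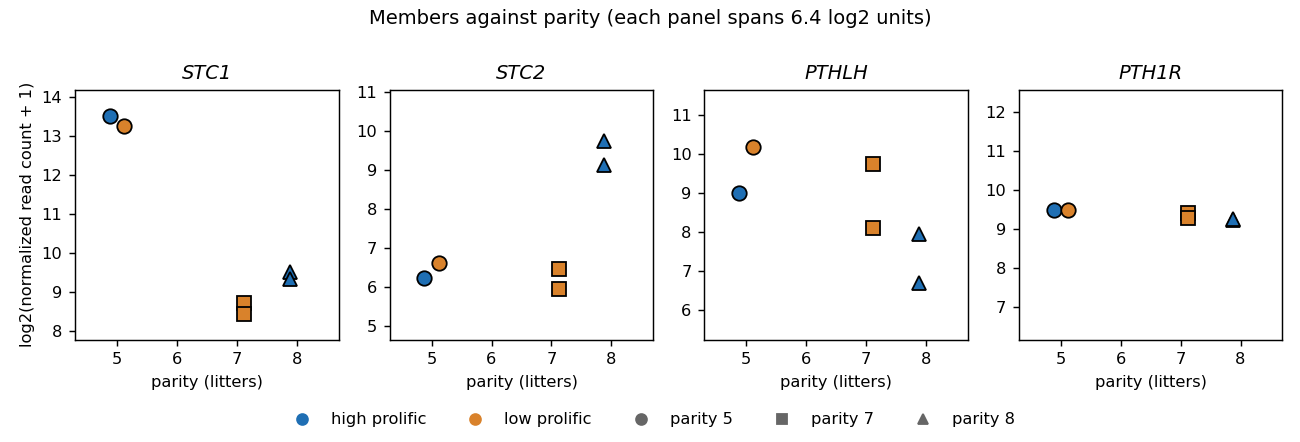
Levels of the 4 genes on the log2(normalized read count + 1) scale (y) against parity in litters (x), 1 point per sow, blue for high and orange for low prolific, shifted slightly sideways by group, with each panel spanning the same number of log2 units. STC1 is high in both sows of parity 5, STC2 in both of parity 8, PTHLH is lowest in a sow of parity 8, and PTH1R is level.

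The same splits were counted over the whole table, with no test, since the pattern of both genes was known beforehand. Both parity 5 sows lay above the other 4 in 1584 genes (11.1%), in 27 (0.189%) by over 2-fold and in 3 (0.021%) by over 4-fold. STC1 had the widest such gap of all genes, ahead of OPN4, the photopigment melanopsin (5.92-fold), and GPX3, a secreted glutathione peroxidase (4.92-fold). Both parity 8 sows lay above the other 4 in 1588 genes (11.1%), in 8 (0.0561%) by over 2-fold and in 2 (0.014%) by over 4-fold. STC2 was the second of these, behind a gene with no symbol (ENSSSCG00000034371, 7.44-fold) and ahead of SARDH, the mitochondrial sarcosine dehydrogenase (2.55-fold). The membership of STC1 and of STC2 held under each of the 3 other scalings of the columns and with genes of low mean left out.

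A straight line over parity, fitted beside group, gave slopes of -1.66 ± 0.20 log2 units per litter for STC1, 0.67 ± 0.27 for STC2, -0.58 ± 0.22 for PTHLH and -0.08 ± 0.04 for PTH1R (SE, 6 libraries). Over all genes, 0 of 14262 (0%) passed limma for parity at the same threshold, with a smallest adjusted p of 0.288 and 1343 genes at an unadjusted p under 0.05. The STC2 slope turned to -0.21 without H1, and the STC1 slope ran from -2.33 without H1 to -1.36 without L3. The 2 sows named are those of parity 5.

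**Figure D3:**
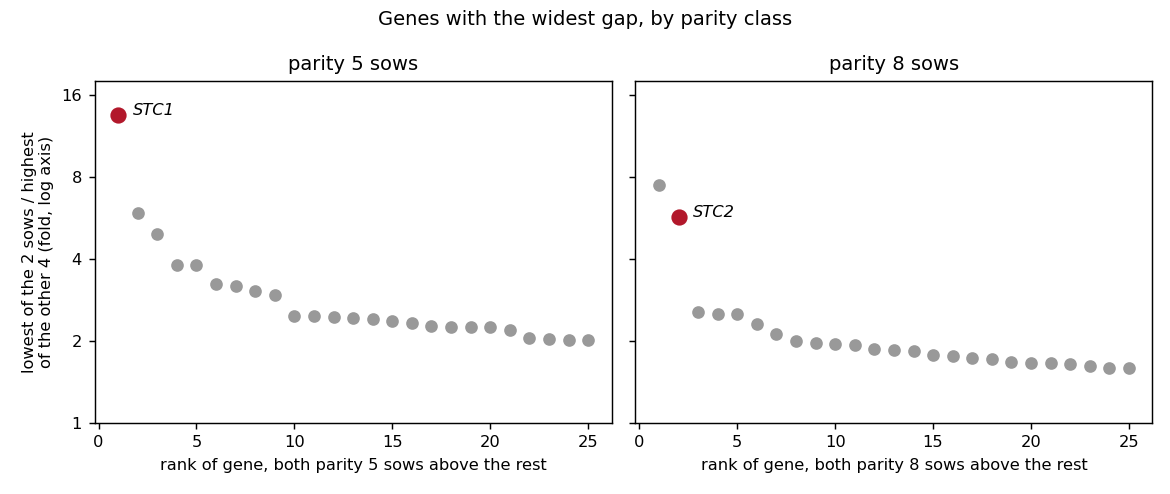
For the 25 genes with the widest gap in each parity class (x, rank), the fold (y, log axis) between the lower of the 2 sows of that parity and the highest of the other 4 sows. STC1 leads at 13.5-fold among genes high at parity 5, and STC2 is second at 5.68-fold among genes high at parity 8.

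PTHLH varied in a graded way and ordered the sows differently from either stanniocalcin. It was at 507 in H1, 103 in H2 and 247 in H3, and at 273 in L1, 862 in L2 and 1162 in L3. L2 and L3 were the highest and H2 the lowest, while L1 fell between H3 and H1, so the groups overlapped. The 3 upper sows began 1.86-fold above the 3 lower ones, and the whole range was 11.3-fold, a width exceeded by 253 genes (1.77%). The means were 286 ± 205 across the high prolific and 766 ± 453 across the low prolific sows (SD, n = 3), with a log2 fold change of -1.46 ± 0.74 (SE). It was -0.87 without H2, -2.09 without L1 and -0.22 without both L2 and L3. Of 8 neutrophil markers 4 were measured, with a summed level of 23295 in L2 and 18044 in L3 against 276 to 11666 in the other 4 sows. S100A8 (5414 in L2 and 10857 in L3 against at most 713) and S100A12 (7533 and 5283 against at most 582) were high in these 2 sows. CSF3R, lowest in L2 (44.3), and MMP8, at 1706 in L3 but 11244 in L1, were not high in both. H1, with more PTHLH than H3 or L1, had a lower summed neutrophil level (5958) than H3 (9139) or L1 (11666). The part of those cells in the PTHLH values was not tested.

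TRPV6, a channel through which epithelial cells take up calcium, was high in the same 3 sows as PTHLH. Its normalized read count was 11187 in H1, 25678 in L2 and 26888 in L3, and it was between 1391 and 3297 in the other 3. TRPV6 was picked after its values were seen, and the share of all genes with this split was not counted. Other genes had the same 3 sows on top, among them ITPR3 (10649 to 11836 against 5650 to 7303) and GPRC5B (5480 to 8199 against 1727 to 3299). A link between TRPV6 and PTHLH was not tested.

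PTH1R, the receptor of PTHLH, was nearly level. It was at 714 in H1, 601 in H2 and 608 in H3, and at 682 in L1, 619 in L2 and 720 in L3. The groups overlapped, the range was 1.20-fold, and 90.4% of all genes had a wider one. The means were 641 ± 63.7 across the high prolific and 674 ± 51 across the low prolific sows (SD, n = 3), with a log2 fold change of -0.07 ± 0.12 (SE). PTH1R was highest in the 2 sows of parity 5 and lowest in the 2 of parity 8, but the step from parity 5 to the next sow was 1.05-fold, and each value lay close to its neighbour. The ligand thus varied by 11.3-fold among sows whose receptor level varied by 1.20-fold. The groups overlapped in each of the 4 genes, while they did not overlap in 13.5% of all genes. In such bulk tissue, fewer cells of a type and less RNA per cell cannot be told apart.

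The genes whose pattern came nearest to each member were ranked by the root mean square (RMS) difference of their centred log2 values over the 6 libraries, among genes with a symbol and a mean of at least 50. For STC1 these were OPN4, ADGRB3, an adhesion receptor of the brain angiogenesis inhibitor family, and GPX3, at RMS differences of 0.91, 0.93 and 0.97 log2 units, against a spread of 2.09 in STC1 itself. OPN4 was at 620 in H1 and 691 in L3, and between 44.8 and 105 in the other 4 sows. GPX3 was at 1694 in H1 and 1641 in L3, and between 81 and 333 elsewhere. None of these 3 genes varied as widely as STC1.

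For STC2 the nearest were ADAM23, a membrane protein of the disintegrin family (0.70), ST6GALNAC1, a sialyltransferase of mucin-type glycans (0.71), and SARDH (0.84), against a spread of 1.50 in STC2. ST6GALNAC1 was at 5026 in H2 and 5195 in H3, at 1874 in H1 and 2007 in L3, and at 783 in L1 and 846 in L2. PTHLH had nearer neighbours than the stanniocalcins. EFHD1, a mitochondrial calcium-binding protein (0.32), RNF152, a ubiquitin ligase of lysosomes (0.33), and IQGAP3, a scaffold of dividing cells (0.34), followed it within a spread of 1.17. EFHD1 was at 1543 in H1, 462 in H2 and 598 in H3, and at 720 in L1, 1999 in L2 and 2940 in L3, the same order of sows as PTHLH. For PTH1R the nearest genes, TAF12, SEPTIN7 and PARS2, were level too (0.03 to 0.04).

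**Figure D4:**
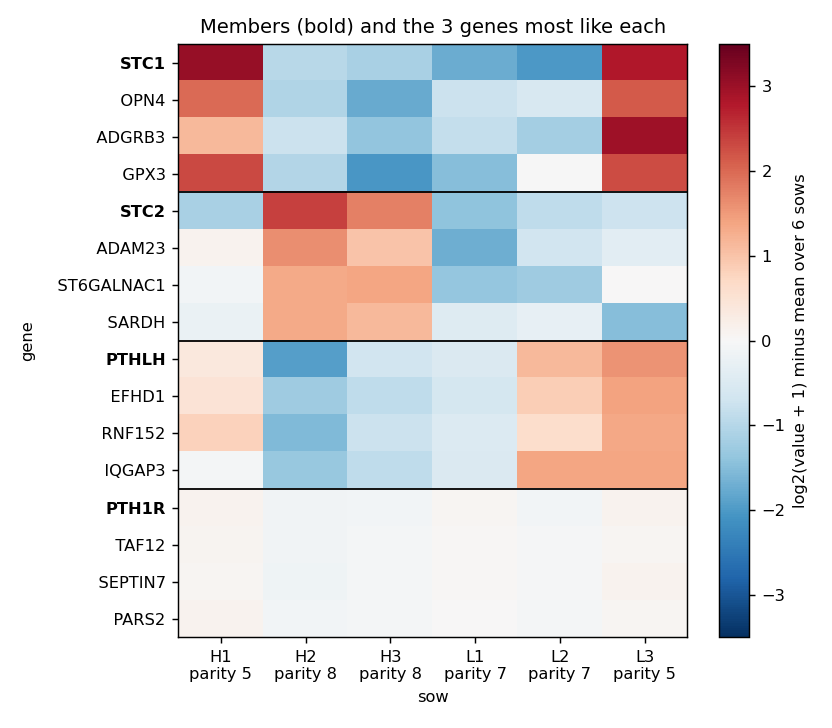
Centred log2(value + 1) (colour, log2 units about the mean over 6 sows) of the 4 members in bold and the 3 genes most like each (rows) in the 6 sows with their parity (columns). STC1 and its nearest genes are high in H1 and L3, STC2 and its nearest in H2 and H3, PTHLH and its nearest in L2 and L3 with H1 between, and PTH1R is flat.

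The genes around these 4 were taken from 11 lists, with 150 genes measured when each is counted once. None of the 150 passed limma over all genes, and the smallest adjusted p among them was 0.619. With an unadjusted p under 0.05, 3 were higher and 15 lower in the high prolific group, or 12% against the 7.92% of all genes. Their median log2 fold change was -0.13, while that of all genes was -0.0024. The groups did not overlap in 19 of the 150 (12.7%), near the 13.5% of all genes. Both parity 5 sows lay above the other 4 in 31 of the 150 (20.7%), against 11.1% of all genes, and both parity 8 sows in 9 (6%), also against 11.1%. The lists were chosen with earlier results of these data known, so these shares are a description and carry no test.

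Among the pappalysins and the IGF axis, 9 of 13 genes were measured, 5 had a higher and 4 a lower mean log2 level in the high prolific group, with a median log2 fold change of 0.01 (-0.26 without L1, -0.18 without H1, -0.15 without L2, 0.26 without L3), and 0 passed. PAPPA, the protease that both stanniocalcins inhibit, was at 347 in H1, 295 in H2 and 259 in H3, and at 225 in L1, 222 in L2 and 693 in L3. Its highest sows were thus the 2 sows with high STC1, at 1.18-fold or more above the rest. The same 2 sows were the highest in 5 of the 9 genes, against 11.1% of all genes, and no set test was run. The others were IGFBP5, IGF1, IGF1R, the IGF receptor, and IRS2, a receptor substrate, all named after their values were seen. IGF1R was at 7790 in H1 and 6992 in L3, and between 4185 and 5300 in the other 4. IGFBP4, the binding protein cut by PAPPA, was lower in each high prolific sow (1962 ± 252 against 2479 ± 129, SD, n = 3) without passing (limma adjusted p = 0.619). IGFBP2 was at 2934 in L2 and 3498 in L3 and between 466 and 827 in the other 4 sows.

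Of hypoxia-inducible genes, 13 of 16 were measured, 3 higher and 10 lower, with a median log2 fold change of -0.26 (-0.12 without H2, -0.14 without L3) and 0 past the test. ADM, adrenomedullin, a vasodilator peptide, was highest at parity 5, at 723 in H1 and 918 in L3 against 256 to 494 in the rest. NDRG1 was also highest in these sows, at 1722 and 2348 against 1315 to 1435. They were 2 of the 13 genes, against 11.1% of all genes. HIF1A, the oxygen-regulated factor, was at 9195 ± 1493 across the high prolific and 11210 ± 2909 across the low prolific sows, and VEGFA, an angiogenic target of it, at 4304 ± 657 and 4591 ± 400 (SD, n = 3). HIF1A was lowest in L3 (7851), a sow with high STC1, and nearly as low in H2 (7919), a sow with low STC1. H1, with the highest STC1, was at 8829. These are RNA levels, and the part of hypoxia in the STC1 values was not tested. PGK1, a glycolytic enzyme, was lower in each high prolific sow (2922 ± 226 against 3850 ± 457), and P4HA1, a collagen hydroxylase, was at 1863 ± 340 against 2601 ± 741, neither past the test.

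ATF4 signalling is known to induce STC2. Of the stress list called the ATF4 stress branch here, 12 of 14 genes were measured, 1 higher and 11 lower. The median log2 fold change was -0.30, with 0 past the test. That list is mixed, since it also holds XBP1 and HSPA5, stress genes that are not specific to ATF4 and are among the 11. The 1 higher gene was SESN2, a stress-induced brake on growth signalling, and like STC2 it was highest in the sows of parity 8, at 1387 in H2 and 1230 in H3. It was at 1116 in H1 and between 708 and 964 in the low prolific sows. ASNS, asparagine synthetase, a classical ATF4 target, went the other way, at 201 in H2 and 241 in H3, the 2 lowest values, and at 525 in L2 and 466 in L3, with 286 in H1 and 283 in L1. ATF4 itself matched no row.

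Of calcium entry and phosphate transport genes, 11 of 15 were measured, 4 higher and 7 lower, with a median log2 fold change of -0.34 (-0.05 without L3) and 0 past the test. SLC20A1, a sodium/phosphate cotransporter, was highest in the 2 sows with high STC1, at 4658 in H1 and 6986 in L3, and between 2402 and 3451 in the rest. STIM1, the store calcium sensor that STC2 is known to bind, was at 2206 ± 707 across the high prolific and 2071 ± 434 across the low prolific sows, and its channel partner ORAI1 was at 445 ± 130 against 831 ± 263 (SD, n = 3), with overlapping groups. A related channel, ORAI2, went the other way and was higher in each high prolific sow, at 1965 ± 395 against 1272 ± 296. S100G, an epithelial calcium buffer, was at 846 ± 372 against 2512 ± 1474, and UCP2, a mitochondrial carrier, at 89.8 ± 15.9 against 150 ± 29.6, with each high prolific sow below each low prolific sow in both. None of these passed the test.

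Of partners of PTH1R, 12 of 17 entries, some of them older names, were measured, 2 higher and 10 lower, with a median log2 fold change of -0.19 and 0 past the test. PTH and PTH2R, the classical ligand and the second receptor, matched no row. RAMP2, a membrane partner of PTH1R, was at 1286 in H1, 923 in H2 and 904 in H3, and at 1128 in L1, 1313 in L2 and 1824 in L3, so the groups overlapped. NHERF1, a scaffold that tethers PTH1R, was at 1301 ± 112 against 1497 ± 177 (SD, n = 3). ARRB1, a beta-arrestin, was highest at parity 5, with 2316 in H1 and 2966 in L3 against 1156 to 1655 elsewhere.

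Of the Gs and cyclic AMP branch, 24 of 28 genes were measured, 12 higher and 12 lower, with a median log2 fold change of 0.01 and 0 past the test. ADCY4, an adenylyl cyclase, was lower in each high prolific sow (359 ± 60.9 against 496 ± 43), and PDE3A, which breaks down cyclic AMP, was higher in each (1514 ± 179 against 1089 ± 223). Of the Gq and protein kinase C branch, 14 of 15 genes were measured, 7 higher and 7 lower, with a median of -0.0027 and 0 past the test. The groups did not overlap in 5 of these 14, against 13.5% of all genes, and the 5 did not go one way. PRKCE and PRKCA, protein kinases C, were lower in each high prolific sow, at 399 ± 67.7 against 795 ± 228 and at 431 ± 74.2 against 572 ± 66 (SD, n = 3). PLCB3 was also lower in each. GNAQ and GNA13, G protein subunits, were higher in each, at 3449 ± 469 against 2759 ± 282 and at 3362 ± 329 against 2931 ± 76.5. Of known PTH1R target genes, 15 of 21 were measured, 8 higher and 7 lower, with a median of 0.0094 and 0 past the test. NR4A1 and NR4A3, nuclear receptors of the immediate early kind, did not follow PTHLH, since both were highest in L2 (5017 and 429) but at only 2166 and 110 in L3, where PTHLH peaked. IGFBP5 and HDAC5 were instead highest in H1, L2 and L3, the sows with the most PTHLH. IGFBP5 was at 9939, 8133 and 9718 there against 3358 to 6969, and HDAC5 at 2092, 3003 and 2486 against 1953 to 2011. The HDAC5 gap was thus narrow, and the highest IGFBP5 values were in H1 and L3, the sows with high STC1. Both genes were picked from the 15 after their values were seen. The share of all genes with this split was not counted, and a link to PTHLH was not tested.

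Hedgehog and TGF-beta signals set PTHLH in growing bone. Here 20 of 21 such genes were measured, 9 higher and 11 lower, with a median log2 fold change of -0.12 (0.08 without L3) and 0 past the test. IHH, the hedgehog ligand of uterine epithelium, was at 254 in H1, 207 in H2 and 196 in H3, and at 603 in L1, 347 in L2 and 81.3 in L3. The sow with the most PTHLH, L3, thus had the least IHH. PTCH1, the hedgehog receptor and target, was lower in each high prolific sow (1363 ± 189 against 1950 ± 361), and GLI1, another target, was at 58.2 ± 3.37 against 119 ± 61.6 (SD, n = 3), with L3 (49.4) below each high prolific sow. DHH, a second hedgehog ligand, was at 27 ± 11.7 against 52.2 ± 13.5. TGFB2 and its receptor TGFBR2 were highest in the 2 sows of parity 5. They were 2 of the 20 genes (10%), near the 11.1% of all genes. TGFB1 ordered the sows as PTHLH did. It was at 780 in H1, 681 in H2 and 707 in H3, and at 755 in L1, 850 in L2 and 1234 in L3. SMAD3 was at 5796 in H1, 6348 in L2 and 6937 in L3 against 3032 to 4036 in the other sows. TGFB1 and SMAD3 were picked from the 20 after their values were seen. The share of all genes with these patterns was not counted, and a link to PTHLH was not tested. TGFB3 was highest in L1 (795). Of prohormone proteases, 7 of 10 were measured, 1 higher and 6 lower, with a median of -0.11 (-0.0044 without L3, -0.048 without H2, -0.20 without H3, -0.21 without either H1 or L1) and 0 past the test. MME, a membrane peptidase, was at 3370 ± 302 against 4002 ± 653, and PCSK6, a proprotein convertase, at 679 ± 27.6 against 791 ± 153.

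**Figure D5:**
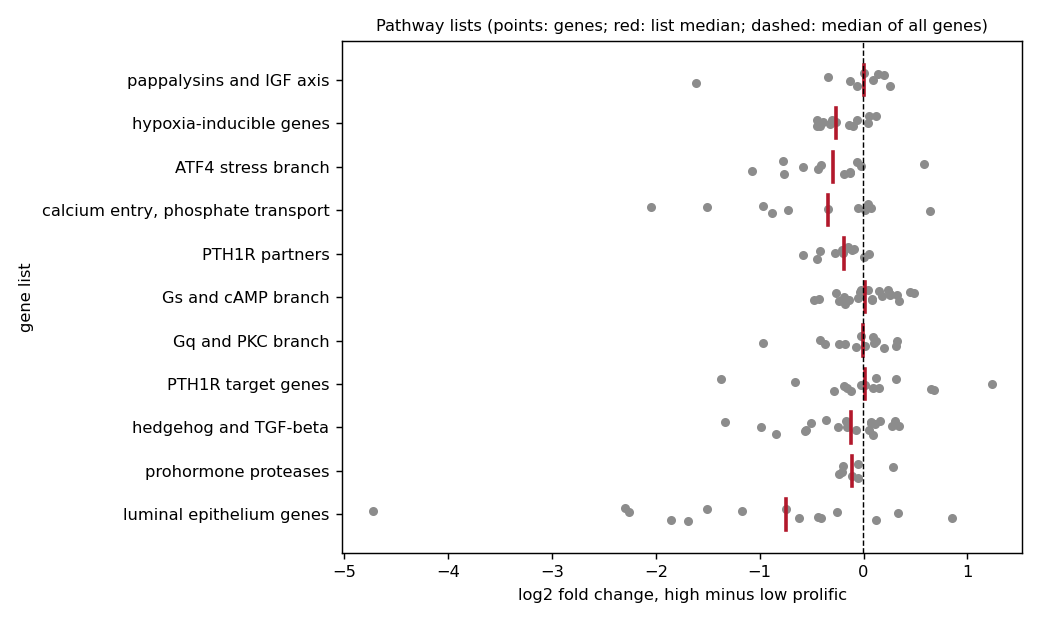
Log2 fold changes, high minus low prolific (x), of the measured genes (points) in the 11 lists (y), with list medians in red and the median of all genes as a dashed line. The luminal epithelium genes have the lowest median at -0.74, and the Gs and Gq branches lie at 0.01 and near 0. The lists were chosen with earlier results of these data known.

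Of luminal epithelium genes of the estrogen response around this day, 15 of 20 were measured, 3 higher and 12 lower, with a median log2 fold change of -0.74 and 0 past the test. Of all genes, 49.6% were higher in the high prolific group. The list was chosen with earlier results of these data known, so its median is a description and carries no test. Neither stanniocalcin shared the pattern of SPP1, osteopontin, the best known of the luminal epithelium genes. SPP1 was at 394 in H1, 229 in H2 and 332 in H3, and at 776 in L1, 891 in L2 and 1453 in L3, so that it separated the groups (limma adjusted p = 0.619) where STC1 did not. ADAMTS20, a metalloprotease, also separated them, with 25.2 to 109 in H1 to H3 and 236 to 9336 in L1 to L3. LIF, an implantation cytokine, was highest in the 2 sows with high STC1, at 979 in H1 and 684 in L3 against 165 to 490 in the other 4.

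Cell markers were set beside the STC1 split. Both parity 5 sows lay above the other 4 in 4 of 9 fibroblast, 2 of 6 endothelial, 2 of 6 ciliated cell, 1 of 3 glandular, 1 of 4 neutrophil and 1 of 3 trophectoderm markers, against 11.1% of all genes. They did so in 0 of 8 epithelial, 0 of 6 smooth muscle, 0 of 9 leukocyte and 0 of 2 red blood cell markers. The 4 fibroblast markers were PDGFRA, DCN, VIM and HOXA10, and the mean centred log2 level over the 9 was highest in L3 (0.33) and H1 (0.13), with 0.018 in L2 and -0.19 to -0.11 in the other 3. The summed fibroblast level, carried mostly by COL1A1 and COL3A1, was 570225 in H1, 631516 in L3 and 643792 in L2. The summed endothelial level was 14803 and 22762 in the 2 sows of parity 5 and 16620 in L2. For STC2, both parity 8 sows lay above the rest in 3 of 9 leukocyte and 1 of 6 ciliated cell markers and in 0 of the measured markers of the other 8 lists, against 11.1% of all genes. The part of these cell types in the stanniocalcin values was not tested.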

How the data were processed

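Endometrial RNA of 6 sows was sequenced with Illumina libraries, 1 library per sow. The deposited table holds normalized read counts, a signal that is never negative and not whole. Per the submitters' processing notes, Subread 1.6, featureCounts and edgeR were used, with roles not stated. The normalization, genome build, annotation and strand setting are likewise not stated, so depth is unknown, no counting interval or coordinate is printed, and overlapping genes may share reads. The table had 14262 genes, of which 11977 matched a symbol by Ensembl identifier.

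Values were fitted on log2(value + 1) with limma 3.58.1 in R 4.3.3 (variance trend, robust moderation, two-sided, Benjamini-Hochberg adjustment over all genes, threshold 0.05), with SE from the moderated variance, and the procedure was tested on simulated data. The log2(value + 1) scale understates changes of low genes. No count model was run on normalized values. A second fit added parity. Members and lists were chosen with earlier results of these data known. The rule for named genes took the 4 members, 18 genes by name, the 2 of each list with the smallest unadjusted p, and the 3 genes most like each member. Of those 18 names, PTH, PTH2R, CASR, GNAS, PAPPA2, IGF2 and ATF4 matched no row. Other genes were chosen after their values were seen, among them IGF1R, IRS2, IGFBP5, IGF1, ADM, NDRG1, SLC20A1, ORAI2, ARRB1, LIF, TRPV6, ITPR3, GPRC5B, GNAQ, GNA13, PLCB3, HDAC5, TGFB1, TGFB2, TGFB3, TGFBR2 and SMAD3. No set test was run. Leaving out libraries, other scalings, pseudocounts, a filter, weights, a replicate block and parity were the alternatives. Replicate numbers did not pair the sows.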

Additional observations from a re-analysis of the deposited data

How the results depend on the processing

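The number of sows limits every value, and depth is unknown. Between the groups limma called 0 genes under each alternative other than leaving out 1 sow, where the count ran from 0 to 4 (4 without L1, 1 without L2). For parity it called 0 throughout. Leaving out 1 sow each, log2 fold changes ran from -0.73 to 2.19 for STC1, 1.33 to 3.09 for STC2, -2.09 to -0.87 for PTHLH and -0.15 to -0.02 for PTH1R. Only STC1 changed sign, in 3 of its 17 alternatives. Without both L2 and L3, PTHLH was at -0.22, the Gq list median at 0.10, the luminal epithelium median at -0.31 and the hedgehog median at -0.021. The hedgehog median of -0.12 was -0.016 with library weights and -0.011 with parity as a covariate. With means of at least 200, the calcium and phosphate median of -0.34 was -0.050, and the counts by parity were 15 for parity 5 by over 2-fold, 5 for parity 8 by over 2-fold and 1 by over 4-fold, with fewer genes tested. Without 1 sow each, list medians ran from -0.20 to 0.077 (hedgehog), -0.27 to -0.12 (hypoxia), -0.58 to -0.049 (calcium and phosphate), -0.049 to 0.11 (cyclic AMP), -0.14 to 0.17 (PTH1R targets), -0.26 to 0.26 (IGF axis), -0.21 to -0.0044 (prohormone proteases), -0.26 to -0.14 (PTH1R partners), -0.42 to -0.22 (ATF4 branch), -0.046 to 0.042 (Gq) and -1.03 to -0.65 (luminal epithelium). The replicate numbers came from the labels alone, and same-numbered sows deviated in opposite directions (correlations of -0.38, -0.16 and -0.36). The replicate block left 0 genes called and 615 against 1129 at an unadjusted p under 0.05, with member log2 fold changes as without it (0.63, 2.02, -1.46 and -0.07). The cause of these shifts was not tested.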

Other observations

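Beside the stanniocalcins, a few other genes split the sows by parity, chosen here after their values were seen. LRIG3, a leucine-rich membrane protein that modulates growth factor receptors, was at 1259 in H1 and 1384 in L3 and between 257 and 426 in the other 4 sows. GNMT, which makes sarcosine from glycine, was at 1122 and 1938 in these 2 sows and between 309 and 454 in the rest. SARDH, which breaks sarcosine down, was instead high at parity 8, with 996 in H2 and 870 in H3 against 141 to 341 elsewhere. TFRC, the transferrin receptor, was at 20093 in H1 and 31601 in L3 and between 5764 and 9965 elsewhere. IL1R2, the decoy receptor of interleukin 1, was at 196 and 1105 in the same 2 sows and between 1.36 and 79.6 in the other 4.

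Among genes high at parity 8, SGPP2, a sphingosine-1-phosphate phosphatase, was at 750 in H2 and 986 in H3, at 355 in H1 and between 31.1 and 119 in low prolific sows. Unlike STC2, it was also higher in the high prolific sow of parity 5 than in any low prolific sow.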
